A study of Homo sapiens with 4 samples.

Results

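The 52 genes of the Wnt family described here comprise 19 WNT ligands, 10 Frizzled receptors, the co-receptors LRP5 and LRP6, the receptors ROR1, ROR2 and RYK, 9 secreted antagonists, AXIN1, AXIN2 and APC of the destruction complex, the ubiquitin ligases RNF43 and ZNRF3, and the 4 TCF/LEF transcription factors. They were listed by gene symbol, with earlier results of these data known, and genes without a peak nearby were kept. Each was looked up as the nearest gene of the peaks in lists of TBX3 binding sites. They are 52 of 19974 protein-coding genes on chromosomes 1 to 22 and X. The lists came from ChIP-seq, in which chromatin bound by a protein is precipitated and its DNA sequenced, in 501mel, an established human melanoma cell line. A peak list measures no expression, so the cell type was not checked against marker genes. The T-box transcription factor TBX3 carried a triple HA tag (TBX3-3xHA) and was precipitated with the anti-HA antibody 12CA5 in 2 ChIP samples, replicate 1 and replicate 2. The 2 input samples of the same line were not analysed here, so no background level stands beside the peaks. No treatment or genotype differed between the 2 ChIP samples, and the labels state neither how the tagged protein was introduced or how much of it was made, nor whether the replicates were separate cultures.

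Canonical Wnt signalling starts when a WNT ligand joins a Frizzled receptor to LRP5 or LRP6. The destruction complex of AXIN and APC is then held in check, beta-catenin accumulates, and it acts on genes bound by TCF/LEF factors. WNT5A and the ROR receptors are the best known parts of the non-canonical branch, which works without beta-catenin. The DKK proteins block the LRP co-receptors, the SFRP proteins and WIF1 bind ligands outside the cell, and RNF43 and ZNRF3 remove Frizzled receptors from the surface. AXIN2, RNF43, ZNRF3 and LEF1 are well known targets of the canonical pathway that feed back on it. In the melanocyte lineage canonical signals promote melanocyte fate through MITF, WNT5A and ROR2 have been linked to invasive melanoma cells, and TBX3 is itself known as a target of canonical Wnt signalling in other cells.

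Each list gave single-base peak summits in hg38 with a nearest gene, a distance to the transcription start site (TSS) and a score whose scale is not stated. Replicate 1 held 32479 summits and replicate 2 held 40494, and the read depth of both is unknown. Summits of both lists that were mutually nearest and within 200 bp were counted as a pair, which gave 22702 pairs. The score is given as deposited and as a percentile, the percentage of summits of the same list with a lower score, where summits of equal score share the middle of their places.

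The member promoters that bear on the results are shown first, from the RefSeq promoter table of GRCh38.p14, which held 45 windows of 300 bases for 37 of the 52 genes. The other 15 had no window, among them FZD2, AXIN2 and ZNRF3, which had a pair within 1 kb of a TSS. Their promoters could be neither shown nor searched for motifs. Each window runs from 250 bases before a start site to 50 bases after it, 5′ to 3′ on the strand of the gene. RNF43 is shown because it was the one member with a pair inside such a window (1 of 45 windows, beside 1.15% of all 35116 windows). The capitals in its window at chr17:58417485-58417784 (minus strand) mark the 32 bases from one summit of the pair to the other, and no searched motif was found in it.
RNF43: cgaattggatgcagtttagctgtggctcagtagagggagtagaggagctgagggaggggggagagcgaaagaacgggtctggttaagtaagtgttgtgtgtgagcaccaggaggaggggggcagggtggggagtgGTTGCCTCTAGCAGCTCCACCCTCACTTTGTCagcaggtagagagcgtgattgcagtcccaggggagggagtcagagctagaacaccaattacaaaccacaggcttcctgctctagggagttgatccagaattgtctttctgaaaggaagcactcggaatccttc
FZD5 is shown because its pair lay just past the end of the window at chr2:207769857-207770156 (minus strand), 11 bp beyond it in replicate 1 and 25 bp in replicate 2. It held no searched motif and so has no capitals.
FZD5: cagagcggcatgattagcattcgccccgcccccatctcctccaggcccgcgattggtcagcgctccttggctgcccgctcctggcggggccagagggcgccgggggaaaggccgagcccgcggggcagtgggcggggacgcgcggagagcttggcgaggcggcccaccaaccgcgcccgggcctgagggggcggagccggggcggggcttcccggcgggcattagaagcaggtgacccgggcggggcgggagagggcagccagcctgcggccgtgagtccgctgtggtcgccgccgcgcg
WNT5A and DKK1 are shown as promoters that hold the T-box core GGTGTG and had no pair nearby. Capitals mark GGTGTG on either strand (CACACC when read on the other) and, in DKK1, also the TCF/LEF motif CTTTGAA. The WNT5A window is chr3:55487257-55487556 (minus strand) and the nearest pair lay 120636 bp from its start site in replicate 1. The DKK1 window is chr10:52314031-52314330 (plus strand) and the nearest pair lay 129289 bp away.
WNT5A: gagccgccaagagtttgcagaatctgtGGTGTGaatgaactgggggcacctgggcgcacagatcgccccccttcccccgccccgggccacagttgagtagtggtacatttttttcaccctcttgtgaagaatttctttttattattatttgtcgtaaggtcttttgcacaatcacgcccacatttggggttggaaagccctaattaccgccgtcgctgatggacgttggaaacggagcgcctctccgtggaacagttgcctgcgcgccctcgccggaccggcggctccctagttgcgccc
DKK1: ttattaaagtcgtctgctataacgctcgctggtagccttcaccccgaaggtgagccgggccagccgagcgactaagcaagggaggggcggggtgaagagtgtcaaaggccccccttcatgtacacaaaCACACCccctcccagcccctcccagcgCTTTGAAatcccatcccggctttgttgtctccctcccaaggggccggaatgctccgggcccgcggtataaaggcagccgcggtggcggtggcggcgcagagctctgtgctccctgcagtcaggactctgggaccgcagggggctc

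The T-box half-site AGGTGTGA, searched on both strands, was in none of the 45 member windows and in 0.98% of all windows. Its core GGTGTG, which also counts every half-site, was in 7 member windows (15.6%) and in 16.8% of all windows. Those 7 belonged to APC, AXIN1, DKK1, WNT16, WNT3A, WNT5A and WNT8B, and none of these genes had a pair within 10 kb of a TSS. Over all protein-coding genes 10.2% had such a pair, so none among 7 is not unusual. The TCF/LEF motif CTTTGAT was in no member window and in 2.62% of all windows, and CTTTGAA was in 1 member window and in 4.43% of all. The E-box CATGTG was in 3 member windows (6.67%, 11.1% of all) and CACGTG in 1 (2.22%, 7.26% of all). Among the 404 windows of the genome with a pair inside, 20.5% held GGTGTG and 2.48% held AGGTGTGA, while 20.0% held CATGTG and 17.6% held CACGTG. The TCF/LEF motifs were in 3.47% (CTTTGAT) and 5.2% (CTTTGAA) of them. A motif match describes letters in a window, and a missing match says nothing about binding elsewhere in the locus. Member windows were also richer in G and C, with a median of 68.0% beside 58.7% over all windows, and CpG was more frequent, with a median of 28 per window beside 14.

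Of the 52 genes, 9 had a pair within 10 kb of a TSS (17.3%). Over all protein-coding genes that share was 10.2% (2037 of 19974). The 9 were WNT5B, FZD2, FZD5, FZD7, ROR1, SFRP5, AXIN2, RNF43 and ZNRF3. At any distance 28 of the 52 had a pair (53.8%), beside 28.7% of all protein-coding genes. Pairs within 1 kb were found at 5 members (FZD2, FZD5, AXIN2, RNF43 and ZNRF3), beside 3.05% of all genes. Another 8 members had only summits without a partner, in 1 list for 7 of them and in both lists for TCF7L2. The remaining 16 had no summit, so 36 members had one in either replicate, beside 41.6% of all genes. With replicate 1 alone 9 members had a summit within 10 kb, where 13.4% of all genes had one. With replicate 2 alone there were 10, where 15.5% of all genes had one. At any distance there were 31 with replicate 1 alone (34.1% of all genes) and 34 with replicate 2 alone (38.4%). Neither share was tested against other genes, and the count at any distance depends on how far the neighbouring genes lie. The outermost pairs inside the 10 kb limit were at 9222 bp (SFRP5) and 9643 bp (FZD7), and the first outside it were at 10231 bp (WNT16) and 10405 bp (WNT7B).

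**Figure D1:**
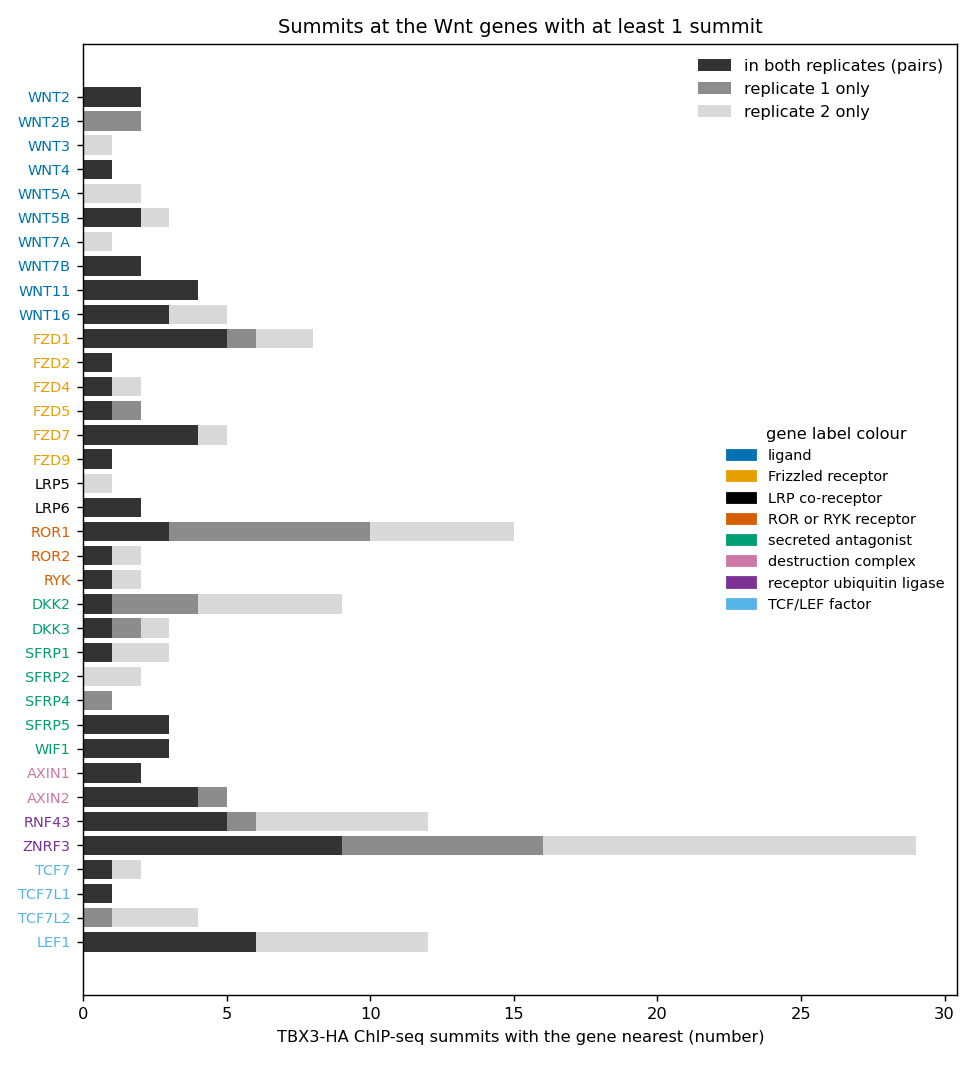
Number of summits with each Wnt gene as the nearest gene (x axis), for the 36 genes with at least 1 summit, split into those found in both replicates and those found in 1 replicate only. ZNRF3 had the most pairs (9), followed by LEF1 (6), FZD1 (5) and RNF43 (5), while WNT5A, TCF7L2 and LRP5 had single-replicate summits alone.

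Replicate 1 had 97 summits and replicate 2 had 129 at these genes, which formed 71 pairs. The share with a partner was 73.2% in replicate 1 (95% Wilson interval 63.6% to 81.0%, counting error only) beside 69.9% of all summits. In replicate 2 it was 55.0% (46.4% to 63.4%) beside 56.1%. Both intervals include the share of the whole list. The mean score percentile of the 71 pairs had a median of 65.1, beside 65.8 over all pairs. The quartiles were 49.2 and 78.6 for the members and 45.9 and 83.3 for all pairs. By position, 56.3% lay in introns beside 39.7% of all pairs, 33.8% were intergenic beside 53.2%, and 18.3% overlapped an annotated repeat beside 41.7%. Many of the 40 pairs in introns came from ZNRF3 (all 9 of its pairs), LEF1 (all 6) and RNF43 (4 of 5). The shares therefore lean on a few genes, and they were not counted without them. The median distance to a TSS was 26218 bp beside 51076 bp. The TSS was within 1 kb for 6 of the 71 pairs (8.45%, beside 3.94% of all pairs).

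**Figure D2:**
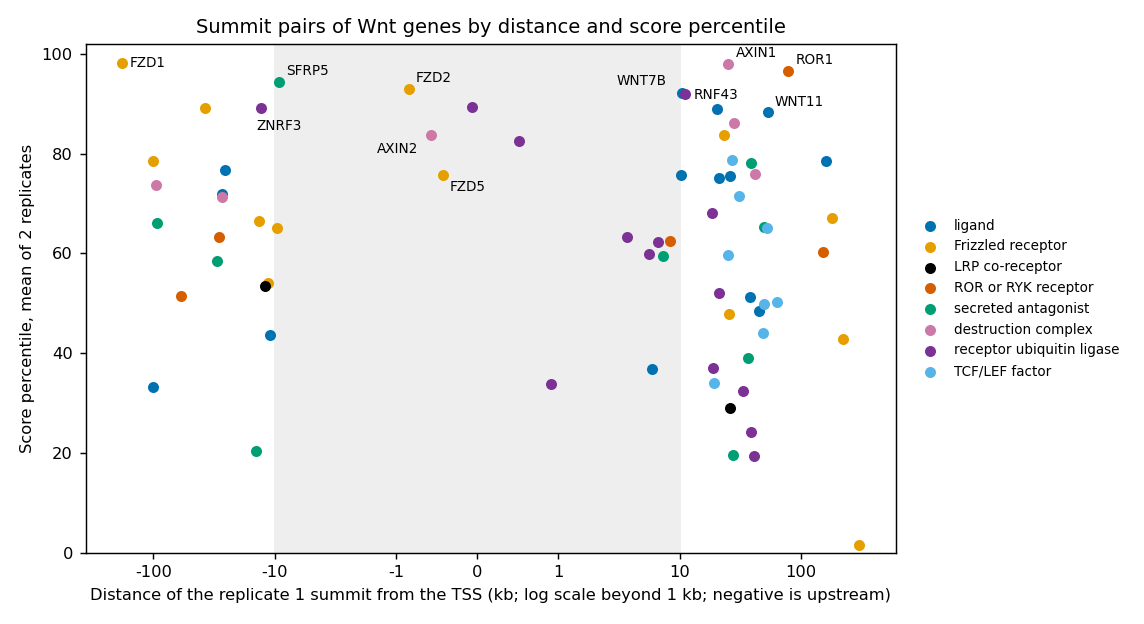
The 71 pairs by distance of the replicate 1 summit from the TSS (x axis, kb, log scale beyond 1 kb, negative upstream) and by score percentile averaged over both replicates (y axis), coloured by role. The grey band marks 10 kb on either side; the points of highest percentile (FZD1, AXIN1 and ROR1) lie outside it, and SFRP5 and FZD2 are the highest inside it.

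**Figure D3:**
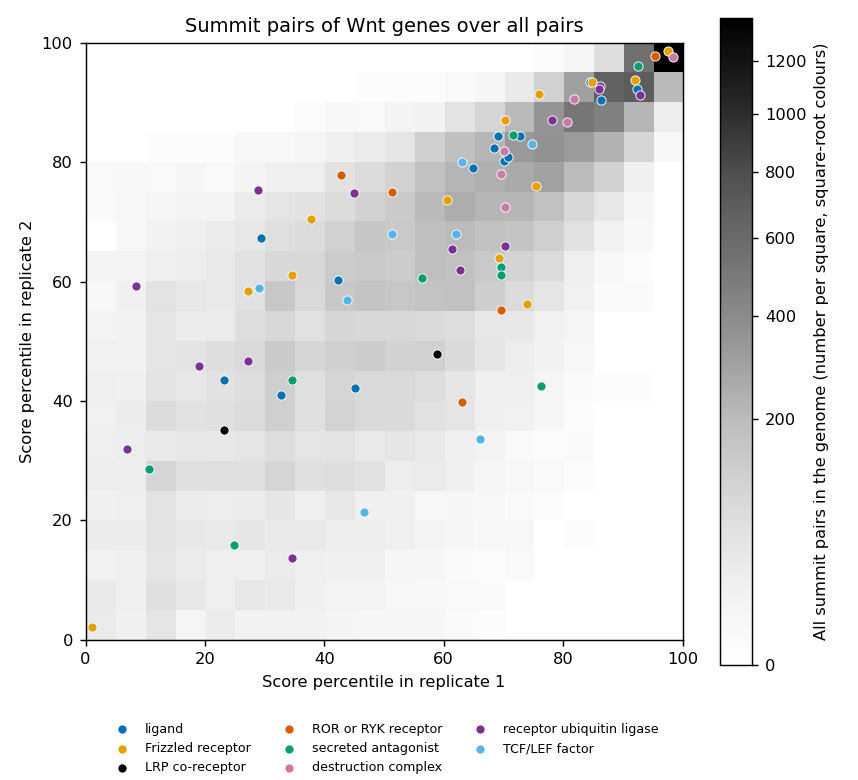
Score percentile in replicate 1 (x axis) and replicate 2 (y axis) for the 71 pairs of Wnt genes, as coloured points, over all 22702 pairs, as grey squares. In 53 of the 71 pairs (74.6%) the percentile was higher in replicate 2, beside 67.0% of all pairs.

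The receptor ubiquitin ligases were the role in which every gene had pairs near a TSS, with 14 pairs over both genes and 6 of them within 10 kb. ZNRF3 spans 28883572 to 29057488 on chromosome 22. It had 16 summits in replicate 1 and 22 in replicate 2, of which 9 formed pairs, all inside the gene. As many pairs with the same nearest gene were found at 119 protein-coding genes, ZNRF3 included (0.596%). This place is that of the member with the most pairs. At ZNRF3, pairing within 50 bp left 5 pairs and scores at or above the median left 3. Its 4 pairs within 10 kb were matched or exceeded at 40 genes (0.20%). The pairs covered 54.2 kb, with a median gap of 4008 bp between neighbours. The pair with the highest percentile lay upstream of the TSS used, by 12888 bp in replicate 1 (score 53.1) and 12858 bp in replicate 2 (107.0), within intron 1 of 8 of a longer transcript. The others were weaker: the 4 pairs within 10 kb lay 912, 3672, 5624 and 6633 bp downstream in replicate 1 with scores of 3.97, 17.8, 10.97 and 18.7. In replicate 2 these scores were 19.2, 23.8, 34.96 and 20.7. The remaining 4 pairs, at 18973, 33389, 38646 and 41298 bp downstream, scored 7.12, 5.76, 8.54 and 3.91 in replicate 1. Their replicate 2 scores were 12.5, 12.2, 4.90 and 8.35. The pair nearest to the TSS was therefore near the bottom of the replicate 1 list (percentile 8.41) and above the middle of the replicate 2 list (59.3). Single-replicate summits were common as well, 7 in replicate 1 and 13 in replicate 2, and most had low percentiles (median 12.8 in replicate 1 and 28.7 in replicate 2). 

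RNF43 differed in having fewer and higher pairs. It had 6 summits in replicate 1 and 11 in replicate 2, with 5 pairs. One pair lay at the outer promoter on chromosome 17, at 58417649 in replicate 1 (score 53.2) and 58417618 in replicate 2 (112.4), which is 67 bp and 36 bp upstream of the TSS in the deposited annotation and falls in the sequence printed above. From the start site of the RefSeq promoter table the same summits are 115 bp and 84 bp upstream. A second lay at an inner start site, 519 bp downstream of it in replicate 1 (score 34.1) and 512 bp in replicate 2 (70.8), in intron 2 of 9. The pair with the highest percentile was 11070 bp downstream of the inner start, at 58391651 and 58391667, with scores of 91.9 and 98.8 and ranks of 2310 and 3541. The last pairs, farther into the same intron, were at 18510 bp (24.8 and 23.998) and 21326 bp (7.20 and 35.7). Replicate 1 alone had a further summit 742 bp upstream of the inner start with a score of 40.6, higher than that of the paired summit beside it, and the nearest replicate 2 summit was 1254 bp away.

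In the destruction complex, the scaffold AXIN2 had a promoter pair on chromosome 17, 575 bp upstream of the TSS in replicate 1 (65562197, score 38.6) and 530 bp in replicate 2 (65562152, score 69.1). It had 3 more pairs at 26964, 41933 and 95284 bp, the farthest inside CEP112, and all 4 lay between the 71.4 and 83.8 percentiles. These 3 scored 24.7, 24.15 and 24.02 in replicate 1 and 31.4, 50.5 and 40.8 in replicate 2. AXIN1, the constitutive scaffold, had no pair within 10 kb. Its 2 pairs were in intron 2 of 9, and the one at 327434 and 327421 on chromosome 16, 25242 bp from a TSS, scored 203.7 in replicate 1 and 226.2 in replicate 2 (ranks 544 and 1001). It was the second highest pair of the whole set by rank sum. The other AXIN1 pair, 28075 bp from the TSS, scored 41.2 and 94.2. APC had no summit in either list, and the nearest pair lay 355003 bp from one of its start sites.

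Among the Frizzled receptors, FZD2, FZD5 and FZD7 had a pair within 10 kb. The FZD2 summit was at 44556601 on chromosome 17 in either list, 843 bp upstream of the TSS, with a score of 83.6 in replicate 1 and 127.0 in replicate 2 (ranks 2590 and 2520). That was the single summit of the gene in each list. At FZD5 on chromosome 2 the summits at 207769846 and 207769832 were 427 bp and 413 bp upstream in the deposited annotation, with scores of 30.1 and 36.7. In the RefSeq promoter table the start site lies elsewhere, and the same summits are 60 bp and 74 bp downstream of it. FZD7 had 4 pairs, all upstream and intergenic, of which the nearest, at 9643 bp, overlapped an Alu repeat and scored 28.5 and 17.4. Its highest pair was 37712 bp away, with scores of 48.9 and 122.2. The others were 11374 bp (9.28 and 29.01) and 100510 bp (24.4 and 69.6) upstream.

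FZD1 had 5 pairs and none within 10 kb. Its highest, at 91084486 and 91084470 on chromosome 7, scored 172.7 in replicate 1 and 302.4 in replicate 2 (ranks 764 and 565) and had the lowest rank sum of all 71 pairs. It lay 179982 bp upstream of FZD1 and inside intron 11 of 13 of CDK14, a kinase known to phosphorylate LRP6, so the gene name rests on the nearest TSS alone. The other FZD1 pairs were intergenic and lay 25390, 178982, 222264 and 301562 bp downstream. They scored 8.54, 17.5, 7.12 and 2.74 in replicate 1 and 20.2, 33.2, 18.3 and 2.86 in replicate 2. FZD4 had 1 pair, 23287 bp downstream and inside PRSS23, with scores of 31.0 and 99.9. FZD9 had 1 pair at 13497 bp (scores 23.8 and 22.1). FZD3, FZD6, FZD8 and FZD10 had no summit.

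Of the co-receptors, LRP6 had 2 pairs named for it, 12035 bp upstream (scores 16.6 and 13.1) and 25841 bp downstream (6.43 and 9.09), both in the lower or middle part of the lists. LRP5 had 1 summit in replicate 2 and none in replicate 1. RYK, a receptor for WNT ligands with an inactive kinase domain, had 1 pair 28980 bp upstream, scoring 13.2 and 35.3.

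Of the 19 WNT ligands 6 had a pair at any distance (31.6%), close to the 28.7% of all genes, and 9 had no summit at all. WNT5B, a ligand close to WNT5A in sequence, was the one with a pair within 10 kb, at 5928 bp and 5900 bp in intron 1 of 4, with low scores of 8.16 and 10.6. Its other pair lay 10963 bp and 10962 bp upstream and scored 11.1 and 10.95. WNT7B on chromosome 22 had 2 pairs in intron 1 of 3 that ranked higher. The first was at 45966723 in both lists, 10405 bp from the TSS, with scores of 85.8 and 107.6, and the second was at 20402 bp, with scores of 48.2 and 123.5. WNT11, a ligand mostly studied for non-canonical signals, had 4 pairs between 25697 and 162087 bp from its TSS. Its highest, at 76153470 and 76153539 on chromosome 11, scored 54.1 and 92.9, none of the 4 lay inside the gene, and 1 lay inside UVRAG. The other WNT11 pairs, 25718 bp upstream and 38174 and 161981 bp downstream, scored 23.6, 10.3 and 26.96 in replicate 1 and 58.6, 19.2 and 59.3 in replicate 2. WNT16 had 3 pairs, of which 1 was in its last exon (exon 4 of 4, scores 24.99 and 47.7), and the others were in FAM3C and CPED1. WNT2 had 2 pairs and WNT4 had 1. WNT2B, WNT3, WNT5A and WNT7A had summits in 1 replicate only, and WNT1, WNT3A, WNT6, WNT8A, WNT8B, WNT9A, WNT9B, WNT10A and WNT10B had none.

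Of the secreted antagonists, SFRP5 alone had pairs within 10 kb, and it had 2 of them, intergenic and on either side of the gene on chromosome 10. The upstream one, at 97781236 and 97781221, lay 9237 bp and 9222 bp from the TSS and scored 87.0 and 175.3 (ranks 2449 and 1582). The downstream one, at 7362 bp and 7333 bp, scored 31.5 and 11.3. A further SFRP5 pair 30148 bp upstream scored 15.3 and 20.13. WIF1 had 3 pairs in intron 2 of 9, the highest 38966 bp from the TSS (scores 25.97 and 59.6). DKK2, DKK3 and SFRP1 had 1 pair each, at 93917, 49954 and 14002 bp, and the DKK3 pair was in the last exon of USP47. SFRP2 and SFRP4 had summits in 1 replicate only. DKK1 and DKK4, blockers of the LRP co-receptors, had none.

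None of the 4 TCF/LEF factors had a pair within 10 kb by the nearest-gene rule. LEF1 had 6 pairs, all in intron 3 of 10, spread over 38.5 kb and between the 44.0 and 71.6 percentiles. Replicate 1 had no other LEF1 summit, whereas replicate 2 had 6 more, with a median percentile of 17.5. TCF7 had 1 pair in intron 5 of 8 (26837 bp, scores 29.0 and 54.0) and TCF7L1 had 1 in intron 3 of 11 (19090 bp, scores 11.6 and 6.22). TCF7L2 had 1 summit in replicate 1 and 3 in replicate 2 and no pair among them.

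The nearest-gene name missed sites inside several of these genes. Counting by RefSeq span, 16 further pairs lay inside 7 member genes under the name of another gene, and 2 more within 10 kb of a member. Inside TCF7L2 lay 3 pairs named for SNORA87, a small RNA gene. The highest of them, at 113003315 and 113003333 on chromosome 10, scored 247.0 in replicate 1 and 299.8 in replicate 2 (ranks 366 and 573) in an intron 53068 bp from a TCF7L2 start site. That mean percentile of 98.7 was above that of every pair named for a member. A second, at 113027911 and 113027935, scored 85.6 and 118.1. LEF1 had a pair named for LEF1-AS1 at 108173346 and 108173361, 7045 bp upstream of a LEF1 start site in the promoter table, with scores of 39.3 and 51.3. ROR1 had 6 further pairs named for its antisense gene ROR1-AS1, the highest at 64098029 and 64098074 with scores of 40.6 and 89.1. ZNRF3 had 2 named for ZNRF3-AS1, ROR2 had 2 named for MIR3910-2, and LRP6, TCF7L1 and LEF1 had 1 each inside the gene. Counting any pair inside a gene or within 10 kb of its span, 22 of the 52 members had one (42.3%), TCF7L2 among them, beside 28.6% of all protein-coding genes. The median span was 37.0 kb for the members and 24.2 kb for all genes, and the part of this difference in the count was not tested. In the other direction, 7 of the 71 pairs named for a member lay inside another protein-coding gene, 27 lay in none, and 37 lay inside the member itself.

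**Figure D4:**
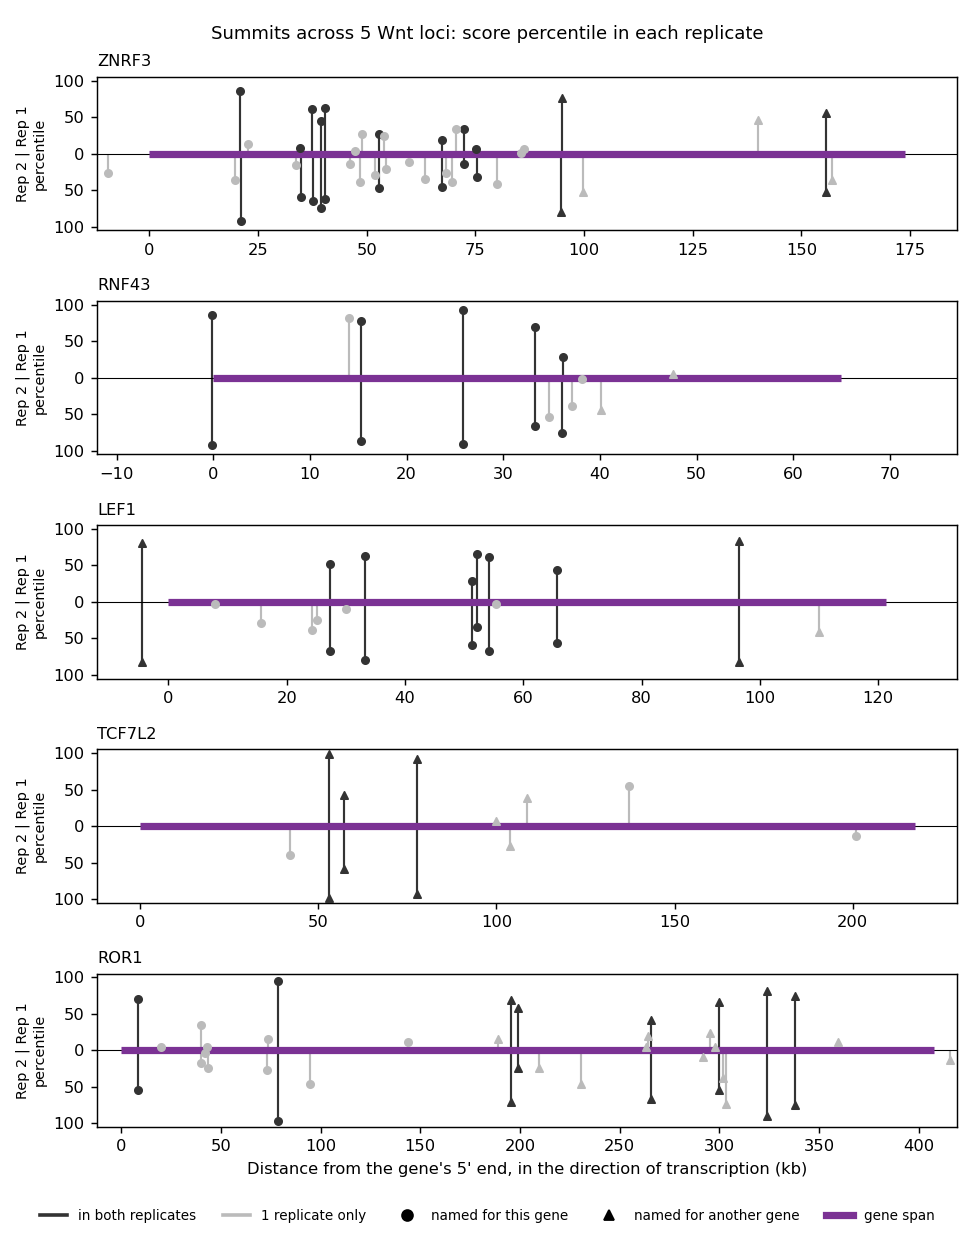
Summits across 5 loci, by distance from the 5′ end of the gene in the direction of transcription (x axis, kb) and by score percentile, with replicate 1 drawn upward and replicate 2 downward. Dark lines are pairs, pale lines single-replicate summits, and triangles summits named for another gene. At TCF7L2 all 3 pairs carry another name, at ROR1 6 of 8 do, and at ZNRF3 most summits stand in one stretch of the gene at low or middle percentiles.

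Canonical and non-canonical genes were then set side by side. Among WNT5A, ROR1 and ROR2, ROR1 had a pair within 10 kb and ROR1 and ROR2 had pairs at any distance. Among 23 canonical genes (9 ligands, LRP5 and LRP6, DKK1, DKK2 and DKK4, AXIN1, AXIN2, APC, RNF43, ZNRF3 and the TCF/LEF factors), 3 had a pair within 10 kb (13.0%, beside 10.2% of all genes) and 10 at any distance (43.5%, beside 28.7%). The first of these shares is near that of all genes. With 3 genes in the smaller class, 1 gene moves its share by 33.3 percentage points, and no test was made. The 4 non-canonical pairs had a median percentile of 61.4 and the 33 canonical pairs one of 63.4. The 3 canonical genes with a pair within 10 kb were AXIN2, RNF43 and ZNRF3, each with a pair within 1 kb, while the pair of ROR1 was at 8365 bp. The other inhibitors of the pathway in the canonical class, AXIN1, APC, DKK1, DKK2 and DKK4, had none within 10 kb. With 10.2% of all genes having such a pair, none among so few genes sets up no contrast.

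ROR1, a receptor with a kinase domain, had the longest span of the 3 non-canonical genes, 407.5 kb on chromosome 1. It had 10 summits in replicate 1 and 8 in replicate 2 but 3 pairs, so 30.0% of the replicate 1 summits (interval 10.8% to 60.3%) had a partner, beside 69.9% of all. In replicate 2 the share was 37.5% (13.7% to 69.4%), an interval that includes the 56.1% of all summits. These ROR1 summits had median percentiles of 24.6 in replicate 1 and 33.3 in replicate 2, beside 49.1 and 50.0 over the lists. Pairing within 500 bp gave 5 pairs. Across the gene and 10 kb around it, under any name, 8 of 19 summits were paired in each replicate. The pair within 10 kb, at 63782384 and 63782385 in intron 1 of 6, overlapped an LTR repeat and scored 24.0 and 16.5. A pair at 63852512 and 63852486, in the same intron and 78493 bp from the TSS, scored 119.7 and 238.4 (ranks 1500 and 907), the third lowest rank sum of the set. The remaining ROR1 pair was intergenic, 59510 bp upstream in an LTR repeat, and scored 19.2 and 10.4. ROR2 had 1 pair under its own name, 151827 bp from the TSS in intron 1 of 7, with scores of 10.8 and 40.6. At WNT5A replicate 1 had no summit. Replicate 2 had 2, at 25442 bp and 70410 bp upstream and inside the neighbouring gene ERC2, with scores of 4.28 and 9.86 and percentiles of 9.92 and 38.1. No pair was named for WNT5A, and none lay inside its span or within 10 kb of it.

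A list of 54 other genes of the pathway was drawn up with earlier results of these data known. Of these, 9 had a pair within 10 kb (16.7%, beside 10.2% of all genes) and 24 at any distance (44.4%, beside 28.7%). These 9 were WLS, which carries WNT ligands to the surface, the membrane inhibitor APCDD1, the beta-catenin cofactor BCL9L, the co-repressor TLE1, the Dishevelled antagonists NKD1 and DACT1, the planar polarity genes VANGL1 and PRICKLE2, and DAAM2. The pair with the highest mean percentile among them was at APCDD1 on chromosome 18, at 10464487 and 10464468 in intron 1, 9859 bp from the TSS (ranks 2187 and 1236). TLE1, which holds TCF/LEF targets silent in the absence of beta-catenin, had the nearest, at its promoter 13 bp from the TSS in replicate 1 (81689522 on chromosome 9, ranks 1492 and 2557). CTNNB1, which encodes beta-catenin, had 13 pairs with the nearest 48849 bp away.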

How the data were processed

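TBX3-3xHA ChIP-seq in 501mel cells gave 2 peak lists, 1 for each ChIP sample. The 2 inputs were not analysed here, and whether they served as controls in the peak calling is not given in the sources used here. The annotatePeaks.pl program of HOMER, per the file headers, annotated a file of summits from each single sample against hg38. The submitters' processing notes name FastQC 0.11.7, cutadapt 2.8, Bowtie2 2.3.5, MACS2 2.1.2 and SAMtools 1.9, with no settings. The score is the authors' deposited value for each summit. Its scale is not stated, so it was used only to rank, filter or describe summits within a list. The signed distance to the nearest TSS, the nearest gene and the annotation class are also deposited values.

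Read depth is unknown, so neither the number of summits nor a missing summit can be scaled to it.

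Mutually nearest summits within 200 bp formed a pair, and a gene was counted when either list named it. Background shares were taken over the 19974 protein-coding genes of the RefSeq table of GRCh38.p14, in which all 52 members were found. Percentiles use mid-ranks for ties. Pairing was tested on simulated data. The genes and lists were chosen with earlier results of these data known. Values are given in full for every member with a pair within 10 kb and for the 6 others with the lowest rank sum; values of further members describe the rest. Motif windows, and TCF7L2 and the other sites named for another gene, were given after their values were seen. Python 3.11.15, pandas 2.3.3 and scipy 1.17.1 were used.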

Additional observations from a re-analysis of the deposited data

How the results depend on the processing

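Over the counts, shares and median reported, 68 of 110 alternatives stayed within 1.5 times the count, within the interval of a share, or within the spread between replicates, and 42 did not. Excluding repeats and using RefSeq start sites were chosen after seeing the data. They gave 7 and 6 members within 10 kb, where the promoter table holds 37 of the 52. Without repeats FZD7 and ROR1 were lost, so no non-canonical gene was left within 10 kb, while AXIN2, RNF43 and ZNRF3 stayed. RefSeq start sites kept 5 of the members first counted and added LEF1. The members not kept, FZD2, FZD7, AXIN2 and ZNRF3, are missing from the promoter table and so could not be counted. The cause of the other changes was not tested, beyond the fewer summits or wider distances that some settings impose.

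Pairing summits at the same base left 1 member within 10 kb and 2 at any distance, 0 canonical and 0 non-canonical genes by either distance, 0 other pathway genes, and partner shares of 2.06% and 1.55%. Pairing within 50 bp gave shares of 53.6% and 40.3% and a median percentile of 71.8. Scores at or above the median gave shares of 87.8% and 74.1% and 1 non-canonical gene at any distance. The 5000 highest scores gave 3 members within 10 kb and 10 at any distance, 1 canonical and 0 non-canonical genes within 10 kb, 3 and 1 at any distance, 4 other pathway genes and shares of 100.0% and 78.6%. A limit of 1 kb left 5 members, 0 non-canonical genes and 1 other pathway gene; 5 kb left 5, 0 and 4. A limit of 50 kb gave 26 members, 9 canonical genes and 20 other pathway genes. By gene span there were 22 members, 10 canonical and 2 non-canonical genes and 24 other pathway genes. The wider non-canonical set (with RYK, WNT5B and WNT11) had 2 genes within 10 kb and 5 at any distance. With every other member called canonical there were 8 and 26.

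Without replicate 1 or replicate 2, members within 10 kb numbered 9 to 10 and at any distance 31 to 34. Canonical genes numbered 3 to 4 and 12 to 13, non-canonical genes 1 to 1 and 2 to 3, and other pathway genes 11 to 13. For the percentile the 71 pairs were kept, which need both lists, with medians of 66.1 in replicate 1 and 70.5 in replicate 2. All member summits of a single list, paired or not, had medians of 51.4 in replicate 1 and 43.5 in replicate 2. Of 90 recounts of pairs at single genes, 35 moved by more than 1.5 times. No paired analysis was possible because each result comes from no test and the input samples have no file here.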

Other observations

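Pairs at the other pathway genes were unevenly spread. By nearest gene at any distance, TLE1 had 16 pairs and CTNNB1 had 13, more than any of the 52 genes, where ZNRF3 had 9. Of these, 2 pairs of TLE1 and 0 of CTNNB1 were within 10 kb of a TSS. In the genome 119 protein-coding genes (0.596%) had as many pairs as ZNRF3 or more, and the highest count was 279. Such counts depend on how far the neighbouring genes lie. The R-spondin receptors LGR4, LGR5 and LGR6 had no pair at any distance, and neither had PORCN, which adds the lipid to WNT ligands. Most genes had none, since 28.7% of all protein-coding genes had a pair.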
